A study of Mus musculus with 6 samples.

Results

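The respiratory chain and ATP synthase genes described here are those whose symbols begin with Nduf, Uqcr, Cox4 to Cox8 or Atp5, the succinate dehydrogenase genes Sdha to Sdhd, and the cytochrome genes Cycs and Cyc1. They were chosen by symbol alone, among probe sets annotated to exactly 1 gene, but with earlier results of these data known. The rule took 86 of the 12393 genes on the array, read by 160 of the 20380 probe sets that carry 1 gene. Liver RNA was profiled on Affymetrix mouse arrays, 1 array per animal, from 3 transgenic and 3 wild-type mice at postnatal day 9. The transgenic mice came from a cross of Conditional Tcfeb overexpressing mice with the Alb-Cre line, in which the albumin promoter drives Cre recombinase in hepatocytes. Tcfeb, now Tfeb, encodes the transcription factor TFEB, known for switching on lysosomal and autophagy genes. The labels state neither the strain nor whether the wild-type mice carried Cre or the conditional allele alone.

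The respiratory chain lies in the inner mitochondrial membrane. Complex I takes electrons from NADH and complex II from succinate, ubiquinone carries them to complex III, cytochrome c carries them to complex IV, and complex IV passes them to oxygen. Complexes I, III and IV pump protons, and complex V, the ATP synthase, uses the returning protons to make ATP. Core subunits hold the catalytic centres, accessory subunits stabilise each complex, and several complex IV subunits exist as tissue isoforms. Liver depends on this machinery for gluconeogenesis, urea synthesis and fatty acid oxidation. Most subunits are encoded in the nucleus, which is what the 86 genes cover, and a few in mitochondrial DNA.

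Values are log2 expression as deposited, 1 probe set per gene, given by array in the order of replicates 1, 2 and 3. Differences are transgenic minus wild type on that log2 scale, with the standard error (SE) and the adjusted p of a limma fit over all 12393 genes. A gene is called higher or lower when its adjusted p is below 0.05. Array medians were 6.78 to 6.79 in transgenic and 6.74 to 6.76 in wild-type liver, and arrays correlated at 0.994 to 0.997 within groups and 0.977 to 0.979 between them. The 1 probe set for Tfeb read 6.52, 6.61 and 6.36 in transgenic against 6.91, 6.63 and 6.58 in wild-type liver (difference -0.21, SE 0.11, adjusted p = 0.168). A transgene that lacks the region it targets would go unseen, so it does not check the labels. Transgenic replicate 1 stood apart in 2 ways. Its Xist value was 5.58 and its value for the Y-linked gene Eif2s3y 9.32, against 13.03 to 13.19 and 3.06 to 3.43 on the other 5 arrays. By these genes transgenic replicate 1 read as male and the other 5 arrays as female, so the groups were not matched for sex. Transgenic replicate 1 also read 8.04 for the skeletal muscle actin gene Acta1 and 7.44 for the muscle troponin gene Tnnc2, against at most 5.17 and 4.56 elsewhere. Results that turn on this array are therefore given without it. The number of arrays limits the precision.

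Most of the respiratory chain and ATP synthase genes rose in transgenic liver, nearly all by small amounts. Of the 86 genes, 59 were called higher, 1 was called lower and 26 were not called. Over all 12393 genes, 19.9% were called higher and 20.4% lower, 40.3% in all. The median difference over the 86 was 0.27, or 1.21-fold, against -0.04 over all genes. All 3 transgenic arrays lay above all 3 wild-type arrays for 68 of the 86 and below them for 2, where 25.6% and 28.1% of all genes did so. Cox7a1 and Ndufaf4, 2 of the 86, were called higher by at least 2-fold. That share is close to the 2.53% of all genes that were. The other 58 called higher, Ndufaf4 included, rose by 0.19 to 1.07.

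**Figure D1:**
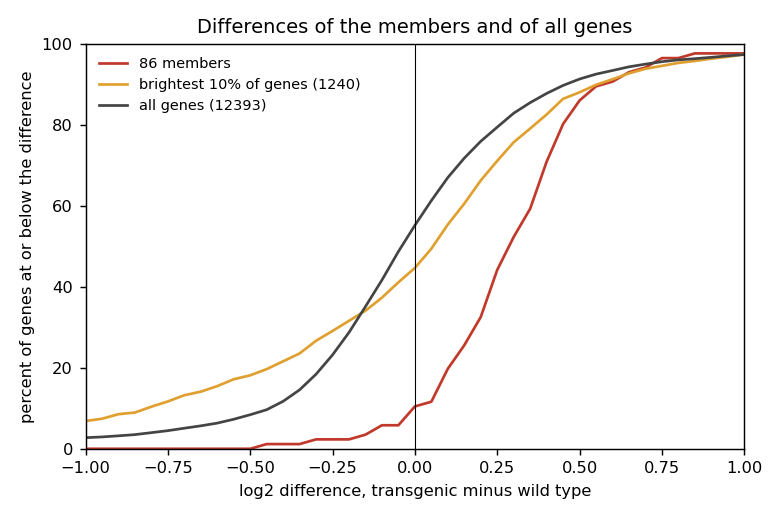
Percent of genes (vertical axis) with a log2 difference, transgenic minus wild type, at or below the value on the horizontal axis, for the 86 members, the brightest 10% of genes (1240) and all 12393 genes, shown from -1 to 1. The members' curve lies to the right of both others from -1 to about 0.6. Medians are 0.27 for the members, 0.06 for the brightest 10% and -0.04 for all genes.

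Most of these genes are bright on the array, so the comparison was repeated within the brightest 10% of genes by mean value. There, 32.1% of 1240 genes were called higher and 29.4% lower, with a median of 0.06. That group held 72 of the 86 genes, of which 52 were called higher and 0 lower, with a median of 0.28. The 14 outside it comprised 7 called higher, 1 called lower and 6 not called. Replicate spread was small: the median within-group SD of the 86 was 0.05 in transgenic and 0.06 in wild-type liver, against 0.09 and 0.10 over all genes. Set against the wild-type mean of each gene, the median of the 86 was 0.25, 0.29 and 0.29 on the transgenic arrays, against 0.03, 0.00 and -0.05 on the wild-type arrays. Transgenic replicate 1 was the lowest of its group for 58 genes, and wild-type replicate 1 the highest of its group for 50.

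**Figure D2:**
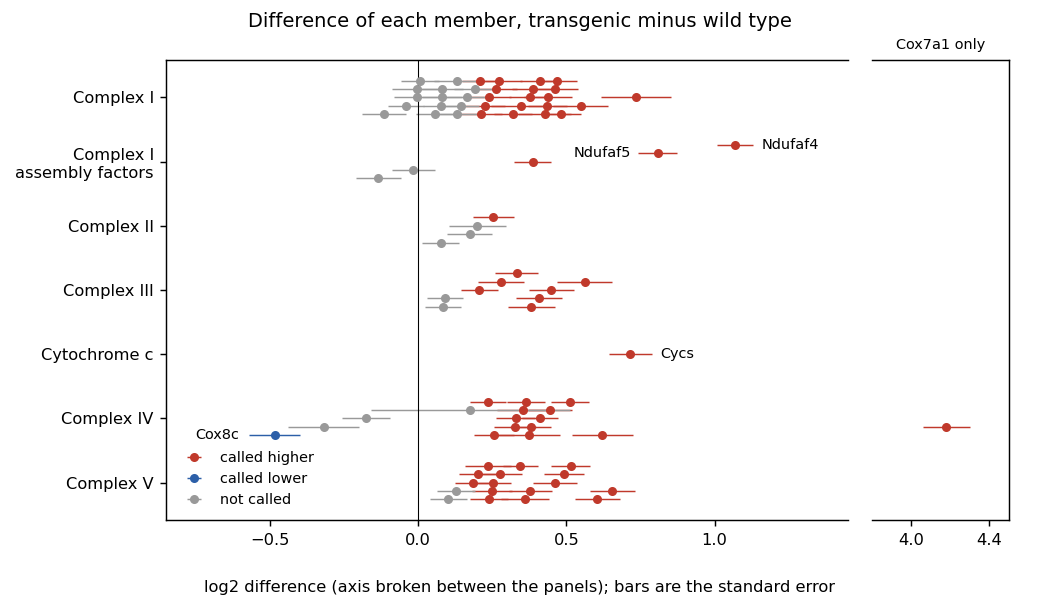
Log2 difference of each of the 86 genes, transgenic minus wild type (horizontal axis, broken at the right for Cox7a1), by complex (vertical axis). Points are coloured by call and bars are the SE. Red points lie right of 0 in all 7 groups, and the 1 gene called lower is Cox8c.

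Complex I, the NADH dehydrogenase, had 33 measured subunits, of which 19 rose, 0 fell and 14 were not called, with a median difference of 0.22. Among its core subunits 5 of 6 rose, with a median of 0.46, against 14 of 27 accessory subunits with a median of 0.21. The difference between core and accessory subunits was not tested. Without transgenic replicate 2 the count of complex I subunits called higher was 12.

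Ndufs7, the core subunit whose iron-sulphur cluster passes electrons to ubiquinone, read 11.34, 11.49 and 11.54 in transgenic against 10.97, 10.56 and 10.63 in wild-type liver. The groups did not overlap, at 11.46 ± 0.11 and 10.72 ± 0.22 (SD, n = 3 each), a rise of 0.73 (SE 0.12, adjusted p = 0.00229) or 1.66-fold. It rose most of the complex I subunits. Ndufv1, which binds NADH and the flavin that first accepts its electrons, read 12.30, 12.46 and 12.47 in transgenic against 12.02, 11.84 and 11.74 in wild-type liver. Its groups were likewise apart, with a rise of 0.55 (SE 0.09, adjusted p = 0.00304) or 1.46-fold. Its iron-sulphur neighbour Ndufv2 read 12.46, 12.59 and 12.54 in transgenic and 12.06, 12.09 and 12.00 in wild-type liver, a rise of 0.48 (SE 0.07, adjusted p = 0.00122) with no overlap. Ndufs1 and Ndufs3, core subunits of the same peripheral arm, rose by 0.44 and 0.43. The remaining core subunit, Ndufs8, holds a pair of iron-sulphur clusters and was not called (0.13, adjusted p = 0.206), nor was any of its 6 probe sets when each was tested on its own.

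Among accessory subunits the largest rise was that of Ndufc1, a small membrane subunit, with 12.76, 12.89 and 12.81 in transgenic against 12.31, 12.40 and 12.34 in wild-type liver. The groups were separate, and the rise was 0.47 (SE 0.07, adjusted p = 0.00136). Ndufa12, Ndufa10 and Ndufa6 followed with rises of 0.46, 0.44 and 0.41. Ndufab1, which is also the acyl carrier protein of mitochondrial fatty acid synthesis, rose by 0.38, but only 1 of its 3 probe sets was called. The 19 subunits called higher spanned 0.21 to 0.73. Those not called spanned -0.11 to 0.19, so small accessory subunits lay on both sides of 0. Ndufb2 had the largest difference of these, at 12.03, 12.07 and 11.95 in transgenic against 11.84, 11.88 and 11.76 in wild-type liver. Its groups did not overlap, but the difference of 0.19 (SE 0.07) missed the threshold at an adjusted p of 0.0608. Ndufa2, Ndufb7 and Ndufs5 had differences of at most 0.01 in size. The lowest value in the complex was that of Ndufa7, at -0.11 (adjusted p = 0.248), where 1 of its 5 probe sets was called lower on its own.

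The symbol rule also took in 5 complex I assembly factors, proteins that build the complex but are not part of it. They were described in full after their values were seen. Of these, 3 rose and 2 were not called. Ndufaf4, an early assembly factor, read 9.84, 9.85 and 9.91 in transgenic against 8.80, 8.78 and 8.82 in wild-type liver. The groups were far apart relative to their spread, with a rise of 1.07 (SE 0.06, adjusted p = 2.08e-05) or 2.1-fold. Ndufaf5, which hydroxylates an arginine of Ndufs7, read 7.80, 7.87 and 7.76 in transgenic and 6.99, 7.04 and 6.96 in wild-type liver, a rise of 0.81 (SE 0.07, adjusted p = 9.16e-05) with no overlap. Ndufaf7, a methyltransferase acting on a core subunit, rose by 0.39 (SE 0.06, adjusted p = 0.00236). Ndufaf1 and Ndufaf3 had differences of -0.02 and -0.13 and overlapping groups. With probe sets of suffix x, s or a left out (marks of probes shared between genes or between transcripts of 1 gene), 3 of the 5 factors were measured, 1 was called higher and their median was -0.017.

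Complex II, succinate dehydrogenase, links the tricarboxylic acid cycle to the chain and is built wholly from nuclear genes. It showed the smallest median of the 5 complexes, at 0.19, with 1 of 4 subunits called higher. Sdhd, a membrane anchor, read 11.93, 12.05 and 12.05 in transgenic against 11.75, 11.82 and 11.70 in wild-type liver. The groups did not overlap, and the rise was 0.25 (SE 0.07, adjusted p = 0.0228) or 1.19-fold. That call was lost without transgenic replicate 2 (adjusted p = 0.0784), transgenic replicate 3 (0.0724) or wild-type replicate 3 (0.0701) and with cyclic loess normalization (0.0878). A second, dimmer probe set for Sdhd was at 0.14 and not called (adjusted p = 0.208 over all probe sets). Its partner anchor Sdhc read 10.40, 10.53 and 10.55 in transgenic and 10.48, 10.20 and 10.19 in wild-type liver. Wild-type replicate 1 lay within the transgenic values, and the difference was 0.20 (SE 0.10, adjusted p = 0.134). Without that array it was 0.29 (adjusted p = 0.0236), and 2 of the 4 subunits were then called. Sdhb, the iron-sulphur subunit, had a difference of 0.17 with separate groups and an adjusted p of 0.105. The flavoprotein Sdha, which oxidises succinate, had one of 0.08 (adjusted p = 0.36).

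Complex III, the cytochrome bc1 complex, had 7 of 9 subunits called higher and 0 lower, with a median of 0.33. For all 9, every transgenic array lay above every wild-type array. All 4 core subunits rose, with a median of 0.43, as did 3 of 5 accessory ones. Cyc1, the cytochrome c1 haem protein that hands electrons to cytochrome c, read 12.15, 12.39 and 12.32 in transgenic against 11.86, 11.64 and 11.67 in wild-type liver. The rise was 0.56 (SE 0.09, adjusted p = 0.00257) or 1.48-fold, the largest in the complex. Uqcrc1, a core scaffold protein, read 11.96, 12.09 and 11.95 in transgenic and 11.64, 11.51 and 11.50 in wild-type liver, a rise of 0.45 (SE 0.08, adjusted p = 0.00291). The Rieske iron-sulphur protein gene Uqcrfs1 read 11.97, 12.20 and 12.09 in transgenic and 11.70, 11.70 and 11.65 in wild-type liver, a rise of 0.41 (SE 0.08, adjusted p = 0.00488). Both scaffold and redox subunits were thus called. The accessory subunit Uqcr11 read 12.60, 12.74 and 12.61 in transgenic and 12.37, 12.27 and 12.17 in wild-type liver, a rise of 0.38 (SE 0.08, adjusted p = 0.00747). Uqcrb, an accessory subunit near the ubiquinone site, read 14.07, 14.09 and 14.07 in transgenic and 14.01, 13.96 and 13.99 in wild-type liver. Its groups were separate but close, with a difference of 0.09 (SE 0.06, adjusted p = 0.258), and Uqcrq had one of 0.08.

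Cycs encodes cytochrome c, the soluble carrier between complexes III and IV that also triggers apoptosis when it leaves the mitochondrion. It read 12.57, 12.58 and 12.70 in transgenic against 11.84, 11.88 and 11.98 in wild-type liver. The groups were 12.62 ± 0.07 and 11.90 ± 0.07 (SD, n = 3 each) with no overlap. The rise of 0.72 (SE 0.07, adjusted p = 0.000256) or 1.64-fold ranked 588 among the rises of all 12393 genes. The subunits Ndufs7 and Atp5o ranked 563 and 690, and Cox7a1 ranked 11.

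Complex IV, cytochrome c oxidase, contained both the largest rise and the only gene called lower. Of 17 genes, 13 rose, 1 fell and 3 were not called, with a median of 0.35. All 10 measured subunits without a tissue restriction and the supercomplex factor Cox7a2l rose, by 0.23 to 0.51, with a median of 0.36 over these 11. Among them, Cox7c was read by a dim probe set, averaging 7.66 in transgenic and 7.29 in wild-type liver. With quantile normalization again its difference was 0.30 and not called (adjusted p = 0.0585). The 6 tissue isoforms went different ways, with 2 called higher, 1 lower and 3 not called. Cox4i1, the common form of the regulatory subunit that binds ATP, read 13.34, 13.38 and 13.39 in transgenic against 12.92, 12.83 and 12.82 in wild-type liver. Its groups were apart, with a rise of 0.51 (SE 0.06, adjusted p = 0.000697) or 1.43-fold. Cox5b, a zinc-binding subunit, read 13.86, 13.89 and 13.83 in transgenic and 13.52, 13.39 and 13.32 in wild-type liver, a rise of 0.44 (SE 0.07, adjusted p = 0.00272). Of the 6 probe sets of Cox5b, 4 were called higher, and without probe sets of suffix x, s or a its difference was 0.06 (adjusted p = 0.537). That value came from a dim probe set, at 5.86 in transgenic and 5.81 in wild-type liver. Ndufa4, first assigned to complex I and now counted in complex IV, read 13.23, 13.28 and 13.31 in transgenic and 12.93, 12.95 and 12.80 in wild-type liver, a rise of 0.38 (SE 0.07, adjusted p = 0.00445).

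Cox7a1, the heart and skeletal muscle isoform of subunit VIIa that brown fat also uses, rose far more than any other of the 86. It read 9.37, 9.60 and 9.44 in transgenic against 5.30, 5.50 and 5.07 in wild-type liver. The groups were far apart on every array, and the means were 9.47 ± 0.12 and 5.29 ± 0.22 (SD, n = 3 each). The rise was 4.18 (SE 0.12, adjusted p = 2e-06) or 18.1-fold as a ratio of array values, and it lay between 4.07 and 4.55 under the alternatives run. Wild-type Cox7a1 was dim and the deposited table holds no detection call, so whether it was above background is not known and the fold has no exact baseline. The form usual in liver, Cox7a2, read 13.57, 13.60 and 13.57 in transgenic and 13.20, 13.19 and 13.13 in wild-type liver, a rise of 0.41 (SE 0.06, adjusted p = 0.00163). Cox7a2l, which joins complexes III and IV into supercomplexes, read 11.40, 11.45 and 11.50 in transgenic and 11.11, 11.06 and 11.09 in wild-type liver, a rise of 0.36 (SE 0.06, adjusted p = 0.00331). All 3 members of this isoform family were therefore higher, by very different amounts.

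**Figure D3:**
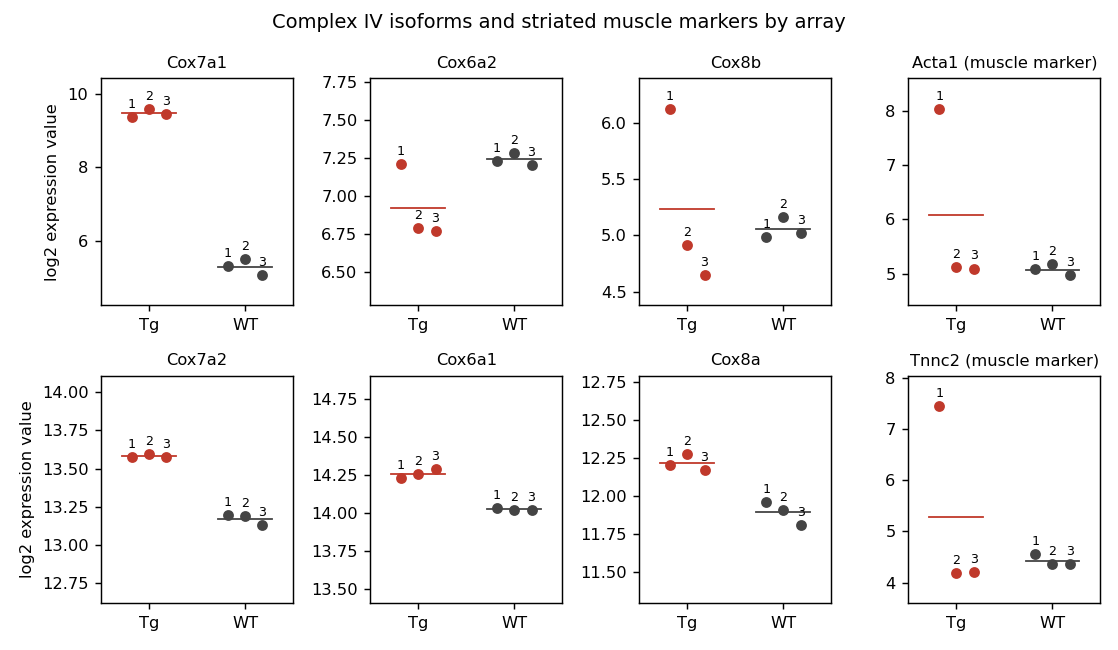
Log2 expression values (vertical axes, each panel with its own range) of 3 pairs of complex IV isoforms and 2 striated muscle markers, in transgenic (Tg, red) and wild-type (WT, grey) liver. Points are arrays numbered by replicate and lines are group means. Cox7a1 is high on all 3 transgenic arrays, whereas Acta1 and Tnnc2 are high on transgenic replicate 1 alone.

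The muscle isoforms of the other subunits did not share that pattern. Cox6a2 read 7.21, 6.79 and 6.77 in transgenic against 7.23, 7.29 and 7.21 in wild-type liver. Transgenic replicate 1 lay among the wild-type values, and the difference was -0.32 (SE 0.12, adjusted p = 0.0688). Without that array it was -0.46 and called lower (adjusted p = 0.00463), and with scaling to the bacterial controls it was 0.053. Cox8b read 6.12, 4.92 and 4.65 in transgenic and 4.98, 5.16 and 5.02 in wild-type liver. Transgenic replicate 1 was high and the other 2 arrays were below the wild type, for a difference of 0.18 (SE 0.34, adjusted p = 0.701) that became -0.27 (adjusted p = 0.0974) without that array. Cox7a1 rose by 4.23 without transgenic replicate 1, and in transgenic replicates 2 and 3, where Cox7a1 read 9.60 and 9.44, Acta1 read 5.13 and 5.10 against 5.08, 5.17 and 4.98 in wild-type liver. Of 6 striated muscle markers 0 were called, and the mean of the list was 4.41 to 6.05 on transgenic and 4.51 to 4.58 on wild-type arrays. Ucp1, the defining uncoupling protein of brown fat, read 3.70, 3.65 and 3.63 in transgenic against 3.64, 3.89 and 3.71 in wild-type liver.

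The common partners of these isoforms rose modestly. Cox6a1 read 14.23, 14.25 and 14.29 in transgenic against 14.03, 14.02 and 14.02 in wild-type liver, a rise of 0.23 (SE 0.06, adjusted p = 0.0177). Its groups did not overlap, yet the call was lost without transgenic replicate 2 (adjusted p = 0.055), transgenic replicate 3 (0.0586) or wild-type replicate 2 (0.0528) and with cyclic loess (0.0574). Cox8a read 12.21, 12.28 and 12.17 in transgenic and 11.96, 11.91 and 11.81 in wild-type liver, a rise of 0.33 (SE 0.07, adjusted p = 0.00919). Cox6b1 read 13.38, 13.43 and 13.44 in transgenic and 13.14, 13.09 and 13.03 in wild-type liver, a rise of 0.33 (SE 0.06, adjusted p = 0.00587). Both had separate groups, and with its 3 probe sets averaged Cox8a had a difference of 0.19 that was not called (adjusted p = 0.0622). The testis isoforms, both dim on the array, moved apart. Cox6b2 read 6.48, 6.78 and 6.69 in transgenic and 6.04, 5.90 and 6.14 in wild-type liver, a rise of 0.62 (SE 0.10, adjusted p = 0.0025) or 1.54-fold. Cox8c read 6.93, 6.79 and 6.68 in transgenic and 7.23, 7.24 and 7.37 in wild-type liver. It was the only one of the 86 called lower, by 0.48 on the log2 scale (SE 0.09, adjusted p = 0.00363). Scaled to the bacterial controls its difference was -0.11 (adjusted p = 0.423). Cox4i2, the lung isoform of subunit IV, read 5.11, 5.10 and 5.18 in transgenic and 5.18, 5.30 and 5.43 in wild-type liver. Every transgenic value was lower, with a difference of -0.18 (SE 0.08, adjusted p = 0.118), which was called without wild-type replicate 1 (-0.24, adjusted p = 0.045) and was 0.19 when scaled to the bacterial controls.

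Complex V, the ATP synthase, had 15 of 17 subunits called higher and 0 lower, with a median of 0.28, and every transgenic array lay above every wild-type array for all 17. Calls were spread over the enzyme, with 4 of 5 subunits of the catalytic F1 head, 2 of 3 c ring genes, 4 of 4 peripheral stalk subunits and 5 of 5 small membrane subunits. The rises were modest, at 0.19 to 0.66, and the count of calls was 8 without transgenic replicate 2 and 9 without transgenic replicate 3. Atp5o, the stalk protein that holds the head in place, read 12.29, 12.49 and 12.42 in transgenic against 11.79, 11.74 and 11.70 in wild-type liver. The rise of 0.66 (SE 0.08, adjusted p = 0.000449) or 1.57-fold was the largest in the enzyme. Atp5b, the catalytic beta subunit, read 13.12, 13.22 and 13.25 in transgenic and 12.69, 12.70 and 12.68 in wild-type liver, a rise of 0.51 (SE 0.07, adjusted p = 0.000759) or 1.43-fold. Atp5c1, the rotating gamma subunit, read 13.21, 13.18 and 13.20 in transgenic and 12.77, 12.72 and 12.62 in wild-type liver, a rise of 0.49 (SE 0.07, adjusted p = 0.00104) that was 0.31 (adjusted p = 0.0255) without probe sets of suffix x, s or a. Atp5a1, the alpha subunit, and Atp5d, the delta subunit, rose by 0.46 and 0.36. The small head subunit Atp5e had a difference of 0.10 that was not called (adjusted p = 0.232).

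The c ring is the rotor that protons turn, and Atp5g1, Atp5g2 and Atp5g3 encode the same mature c subunit behind different import sequences. Atp5g1 read 12.35, 12.44 and 12.39 in transgenic against 11.91, 11.72 and 11.74 in wild-type liver, a rise of 0.60 (SE 0.08, adjusted p = 0.000668) or 1.52-fold. Atp5g3 read 13.71, 13.76 and 13.78 in transgenic and 13.48, 13.50 and 13.51 in wild-type liver, a rise of 0.25 (SE 0.06, adjusted p = 0.0141) that was not called without transgenic replicate 2 (adjusted p = 0.0511). Atp5g2 read 11.47, 11.49 and 11.43 in transgenic and 11.34, 11.38 and 11.29 in wild-type liver. Its groups were separate by a small margin, and the difference was 0.13 (SE 0.06, adjusted p = 0.145). The 3 genes thus gave differences of 0.60, 0.25 and 0.13, and whether they differ from each other was not tested.

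**Figure D4:**
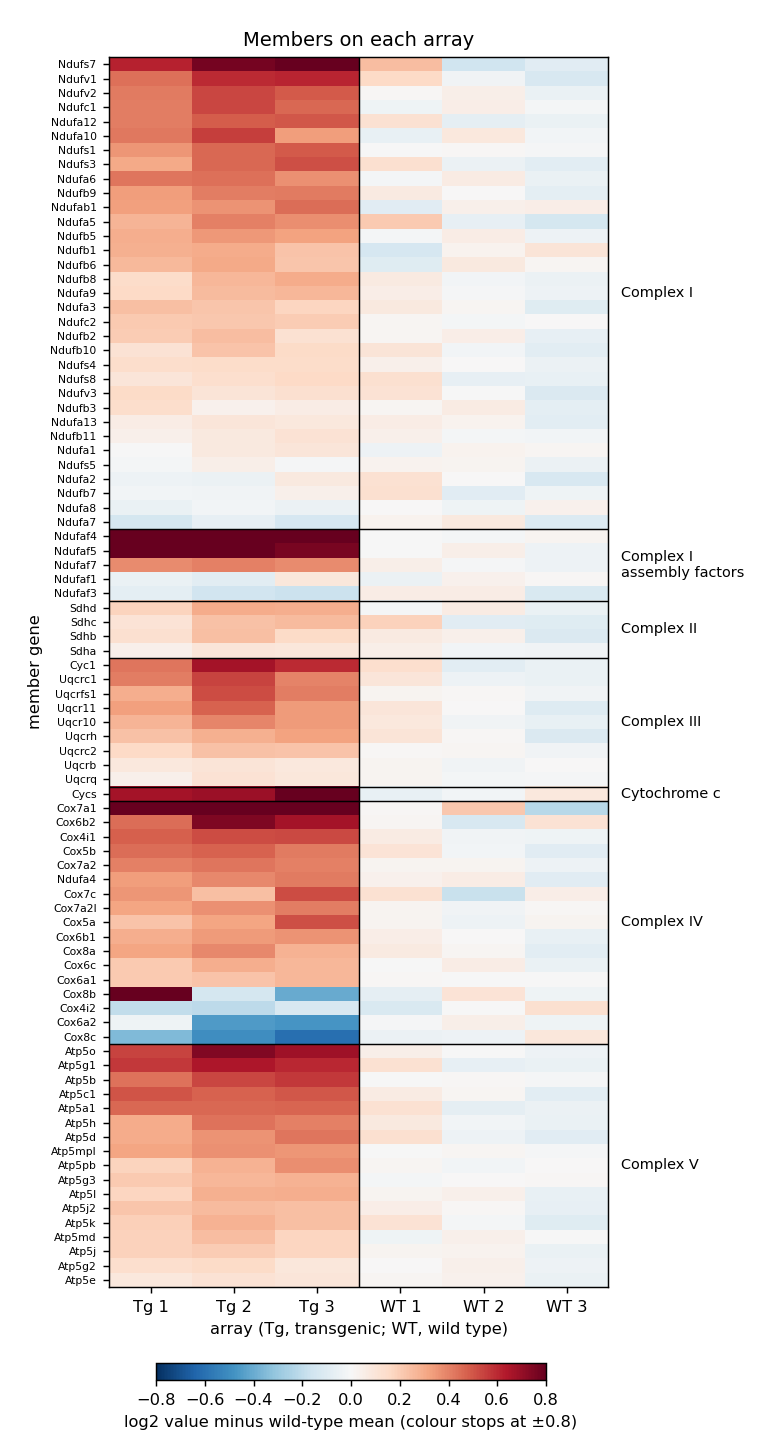
Log2 value of each of the 86 genes (vertical axis, by complex and then by difference) on each array (horizontal axis; Tg, transgenic; WT, wild type), minus the wild-type mean of that gene, with colour ending at 0.8 in either direction. The transgenic columns are mostly red in all 5 complexes, palest for complex II, and Cox8b is red on transgenic replicate 1 alone.

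Where a gene had more than 1 probe set, the others were read as well. Of 46 such genes, 25 had all their probe sets called higher, 9 had some higher and none lower, 9 had none called, 3 had at least 1 lower and none higher, and 0 had calls in both directions. Over all 160 probe sets, 97 were called higher and 4 lower, where 18.7% and 17.6% of all 20380 probe sets were. The 3 genes with a lower probe set were Ndufs4, Ndufa7 and Uqcrq, with 1 of 3, 1 of 5 and 1 of 4 probe sets at -0.49, -0.32 and -0.43. In each, the brightest probe set, which stands for the gene, was not called.

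Genes that build, feed or regulate the chain were counted in the same way, beside the 19.9% called higher and 20.4% called lower over all genes. The 29 measured assembly factors of complexes I to IV outside the symbol rule comprised 9 called higher, 5 lower and 15 not called, with a median of 0.05. By complex, 3 of 7 rose for complex I, 0 of 3 for complex II, 2 of 5 for complex III and 4 of 14 for complex IV, where the 5 that fell also lay. The complex I factors Foxred1, Dmac2 and Timmdc1 rose by 0.53, 0.48 and 0.25, and the complex III factors Ttc19 and Uqcc2 by 0.60 and 0.30. The copper chaperones of complex IV split. Cox17 read 11.70, 11.68 and 11.74 in transgenic against 11.15, 11.05 and 11.07 in wild-type liver, a rise of 0.62 (SE 0.06, adjusted p = 0.000287), and Cox19 rose by 0.60. Sco2, which inserts copper, read 7.80, 7.87 and 7.81 in transgenic and 8.84, 9.53 and 9.16 in wild-type liver. The groups were widely apart and Sco2 fell by 1.35 on the log2 scale (SE 0.16, adjusted p = 0.000473). The 1 probe set for Sco2 has the suffix s, as has the one that stands for Cox17, so either may read shared sequence. With scaling to the bacterial controls the complex IV factors were 8 higher and 1 lower, and Sco2 was at -0.98 (adjusted p = 0.000339).

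Atpif1, the inhibitor that stops complex V from running backwards, had a larger rise than any of its subunits, a ranking without a test. It read 11.59, 11.51 and 11.48 in transgenic against 10.57, 10.48 and 10.45 in wild-type liver, a rise of 1.03 (SE 0.07, adjusted p = 3.78e-05). The other 2 genes of its list of 3, both assembly factors, were not called. Among 6 measured supercomplex and uncoupling genes, 3 rose and 1 fell, with a median of 0.25. The adenine nucleotide carriers, which exchange ATP for ADP across the inner membrane, led them. Slc25a4, the carrier of heart and muscle, read 12.83, 12.95 and 12.77 in transgenic and 11.16, 11.35 and 11.25 in wild-type liver, a rise of 1.60 (SE 0.08, adjusted p = 1.27e-05). The broadly expressed carrier Slc25a5 rose by 0.88 (adjusted p = 6.1e-05) and the respiratory factor Higd1a by 0.39.

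Genes of ubiquinone synthesis went both ways, with 3 of 9 higher, 3 lower and a median of 0.05. Coq7, a hydroxylase of the pathway, rose by 0.67 (adjusted p = 0.000361). The atypical kinase Coq8a read 8.70, 8.54 and 8.87 in transgenic against 10.39, 9.95 and 10.02 in wild-type liver and fell by 1.42 on the log2 scale (SE 0.13, adjusted p = 0.000175). Its relative Coq8b fell by 0.70, but with scaling to the bacterial controls it was at -0.33 and not called. Of 6 enzymes that pass electrons to ubiquinone from other substrates, 0 rose and 2 fell, with a median of -0.20. Sqor, which oxidises sulphide, fell by 0.87 on the log2 scale (SE 0.12, adjusted p = 0.00131). Etfb, a flavoprotein subunit for fatty acid oxidation, fell by 0.26, but was at 0.11 when scaled to the bacterial controls. Scaled to the bacterial controls, the ubiquinone list was 6 higher and 1 lower and the side entries 1 higher and 1 lower.

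**Figure D5:**
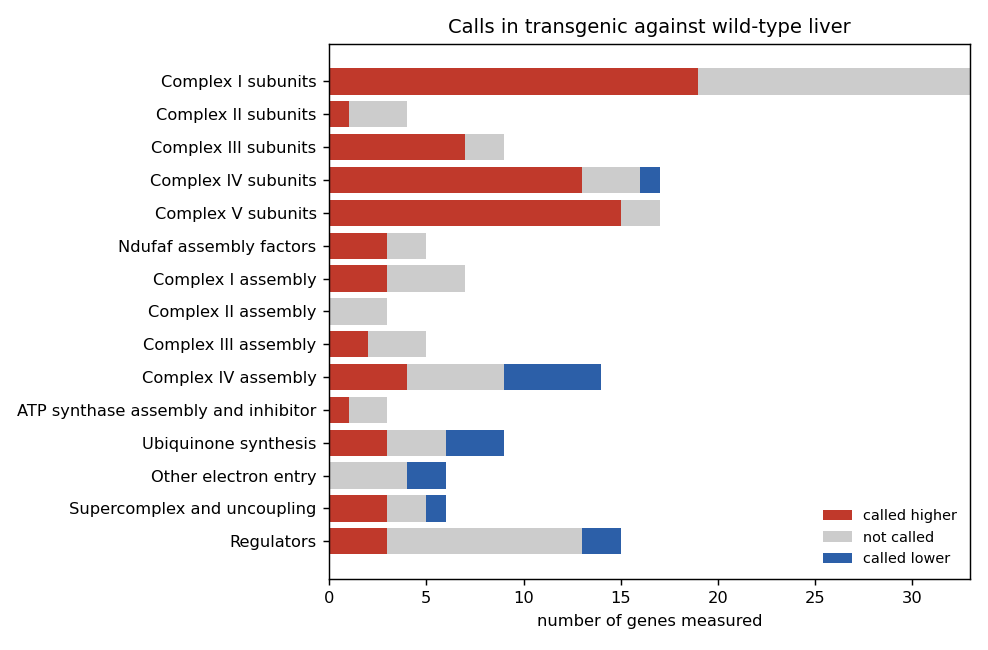
Number of genes measured (horizontal axis) that were called higher, not called or called lower in transgenic against wild-type liver, for the subunits of each complex, the Ndufaf factors and 9 lists of related genes (vertical axis). Genes called lower are 1 among the complex IV subunits and 5 among the 14 complex IV assembly factors.

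Of the 13 subunits encoded in mitochondrial DNA, 1 was measured. ND5, a proton-pumping subunit of complex I, read 12.48, 12.38 and 12.36 in transgenic against 12.78, 12.79 and 12.69 in wild-type liver. The groups were apart in the direction opposite to the nuclear core subunits, and ND5 fell by 0.35 on the log2 scale (SE 0.07, adjusted p = 0.00596), although with scaling to the bacterial controls it was at 0.02 (adjusted p = 0.853). Among 15 known regulators of these genes, 3 rose, 2 fell and 10 were not called, with a median of 0.06. Ppargc1a, the coactivator that drives mitochondrial gene expression, read 11.47, 12.06 and 12.02 in transgenic and 8.56, 9.15 and 8.77 in wild-type liver. No arrays overlapped, and its rise of 3.02 (SE 0.20, adjusted p = 3.37e-05) was 8.12-fold. Esrra, the estrogen-related receptor it works with, rose by 0.82 (SE 0.11, adjusted p = 0.000945). Ppara, the receptor for fatty acid oxidation genes, fell by 1.09 on the log2 scale (SE 0.08, adjusted p = 7.5e-05). Nrf1, Gabpa and Tfam, which act on the nuclear subunit genes or on mitochondrial DNA, had differences of -0.07, 0.17 and 0.01 and were not called. When scaled to the bacterial controls, 11 of the 15 were higher and 1 lower.

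Marker genes of several cell types moved with the groups as well, and in bulk tissue fewer cells of a type and less RNA per cell cannot be told apart. Alb and Ttr, defining hepatocyte genes, had differences of 0.00 and -0.03. Both lay near the top of the signal range, where quantile normalization can hold values level. Their small differences therefore cannot show whether hepatocyte RNA was steady. Hepatocyte markers fell for 5 of 8, with array means of 12.25 to 12.51 in transgenic and 13.31 to 13.34 in wild-type liver. Of 5 bile duct markers 4 rose, with means of 8.19 to 8.51 in transgenic and 6.02 to 6.97 in wild-type liver. Granulocyte markers fell for 5 of 6, with means of 7.95 to 8.80 in transgenic and 9.59 to 10.67 in wild-type liver. Lymphoid markers fell for 4 of 4, endothelial for 3 of 4, Kupffer cell and macrophage for 2 of 5 and exocrine pancreas for 2 of 3. Red cell precursor markers rose for 2 of 4, and stellate and fibroblast markers for 1 of 5 with 1 lower. Neither brown fat marker was called. Over all genes 19.9% were called higher and 20.4% lower. With scaling to the bacterial controls, hepatocyte markers were 2 higher and 4 lower, bile duct 4 and 0, granulocyte 0 and 5, lymphoid 0 and 2, endothelial 1 and 0, Kupffer cell and macrophage 1 and 0, stellate and fibroblast 4 and 0, red cell precursor 3 and 0, pancreas 0 and 1, and brown fat 1 and 0. The lower calls of the endothelial and the Kupffer cell and macrophage lists were thus lost under that scaling. The 3′ minus 5′ difference of the Gapdh control probes, a measure of RNA integrity, was 0.54, 0.63 and 0.69 in transgenic against 1.01, 0.60 and 0.73 in wild-type liver. The part of any of these in the rise of the 86 genes was not tested.

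Promoter sequences were looked up because the genes moved together. RefSeq (GRCm38.p6) windows of 300 bases, from 250 before to 50 after the transcription start, were found for 71 of the 86 genes, 51 of them called higher. The whole upstream stretch is shown for Cox7a1 (chr7:30183921-30184170, plus strand), Cycs (chr6:50566570-50566819, minus strand) and Ndufaf4 (chr4:24897833-24898082, plus strand), since Cox7a1 rose most of the 86, Cycs encodes the electron carrier and Ndufaf4 rose most of the assembly factors. Each is written 5′ to 3′ on the strand of the gene, in lower case with any searched motif in capitals.
Cox7a1: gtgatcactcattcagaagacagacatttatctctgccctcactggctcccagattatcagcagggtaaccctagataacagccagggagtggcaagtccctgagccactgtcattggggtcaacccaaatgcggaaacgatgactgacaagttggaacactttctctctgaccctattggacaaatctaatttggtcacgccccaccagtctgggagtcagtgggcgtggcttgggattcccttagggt
Cycs: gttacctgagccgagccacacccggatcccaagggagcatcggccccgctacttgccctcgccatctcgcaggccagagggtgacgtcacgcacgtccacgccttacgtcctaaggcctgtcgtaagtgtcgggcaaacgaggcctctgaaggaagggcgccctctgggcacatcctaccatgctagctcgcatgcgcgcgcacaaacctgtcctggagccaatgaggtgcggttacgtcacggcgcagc
Ndufaf4: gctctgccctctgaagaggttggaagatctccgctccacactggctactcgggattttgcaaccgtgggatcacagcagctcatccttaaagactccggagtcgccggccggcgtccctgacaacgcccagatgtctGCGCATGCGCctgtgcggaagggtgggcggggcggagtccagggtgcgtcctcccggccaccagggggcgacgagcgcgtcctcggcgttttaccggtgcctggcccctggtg
The upstream stretches were 51.2% G and C for Cox7a1, 64% for Cycs and 66.4% for Ndufaf4. No exact match to the letters searched occurred in those of Cox7a1 and Cycs, and Ndufaf4 held the NRF1 letters 113 bases before its start. Near matches were not searched. The Cycs stretch holds tcgcatgcgc, which differs from the NRF1 letters in its first base alone. The lack of an exact match there does not show that an NRF1 site is absent.

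The letters searched on both strands were those in capitals in Ndufaf4 for NRF1, CCGGAAGT for GABP, TCAAGGTCA for estrogen-related receptors, AAGATGGC for YY1 and TCACGTGA for the CLEAR element that TFEB binds. Matches of different motifs overlapped in 0 cases. NRF1 letters were in the windows of 6 of the 71 genes (8.45%) and in 1.07% of all 27025 genes with a window. GABP letters were in 5 (7.04%) against 4.31%, estrogen-related receptor letters in 2 (2.82%) against 0.466%, and YY1 letters in 9 (12.7%) against 3.19%. For YY1, 7 of the 9 matches began at or after the start. The CLEAR letters were in 1 of the 71 (1.41%), Ndufa7, against 1.12% of all genes. The genes behind these background shares were not matched to the 71 for brightness or for G and C content. Of the 23 genes with any of the searched motifs, 20 were called higher, where 51 of all 71 genes with a window were. Whether these shares differ was not tested. Stretches of 60 bases are shown as examples, chosen with the calls known, for 5 genes of complexes III to V with a match upstream of the start, again on the strand of the gene with the motif in capitals.
Cox6a1: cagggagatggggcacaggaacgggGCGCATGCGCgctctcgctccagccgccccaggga
Atp5k: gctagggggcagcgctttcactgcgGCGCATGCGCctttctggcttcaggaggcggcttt
Uqcr11: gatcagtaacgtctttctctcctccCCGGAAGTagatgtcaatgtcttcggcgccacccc
Atp5h: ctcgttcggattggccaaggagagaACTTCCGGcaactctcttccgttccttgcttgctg
Atp5g3: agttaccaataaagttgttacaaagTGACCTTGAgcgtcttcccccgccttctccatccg
The capitals mark NRF1 letters in Cox6a1 (chr5:115349086-115349145) and Atp5k (chr5:108434415-108434474), which begin 162 and 50 bases before the start. They mark GABP letters in Uqcr11 (chr10:80406853-80406912) and, on the opposite strand, in Atp5h (chr11:115419924-115419983), 66 and 39 bases before it. In Atp5g3 (chr2:73911344-73911403) they mark the estrogen-related receptor letters on the opposite strand, 52 bases before the start. All 5 genes lie on the minus strand of the genome. Atp5g2, which also held NRF1 letters upstream of its start, was not called (0.13). A match is a description of the letters and not of binding, which these data do not measure.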

How the data were processed

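Liver RNA was labelled as biotinylated cRNA, per the labels. The deposited log2 values per probe set were made by the authors with affy and RMA, per the submitters' processing notes; their versions are not given there. RMA corrects background, equalises arrays by quantile normalization and summarises probes, so a shift in total RNA per cell is invisible. Platform annotation named the probe sets, and the one with the highest average over the 6 arrays stood for each gene. Groups were compared in limma 3.58.1 under R 4.3.3 by lmFit and eBayes without covariates, and p-values over 12393 genes were adjusted by Benjamini-Hochberg. Exact permutation of 3 against 3 arrays reaches p = 0.1 at best and was not used. The labels call the arrays biological replicates.

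The members and all gene lists were chosen with earlier results of these data known. Genes given by array were, in each complex, up to 4 called with the largest rise, up to 3 with the largest fall, the uncalled gene with the largest difference, Cycs and the tissue isoform sets. Genes of related lists were named, up to 3 a list, by largest called difference, and genes outside this rule were named after their values were seen. Same-numbered arrays did not deviate together (correlations of -0.10, -0.02 and 0.06), so no pairing was used. The fit was tested on simulated data. Alternatives covered probe set choice, dim genes, normalization, scaling to 14 bacterial control probe sets, fit options, blocking by replicate number and dropping arrays 1 at a time. Python 3.11.15, pandas 2.3.3 and matplotlib 3.10.9 were used for promoters and figures.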

Additional observations from a re-analysis of the deposited data

Results flagged for a closer look

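Probe sets annotated to a subunit gene together with a paralogue or pseudogene were left out of the 86 genes, and 6 of them were above the wild-type level on every transgenic array. They cannot say which of the genes they name was measured. The probe set of Ndufs5 and Ndufs5-ps averaged 11.65 in transgenic and 11.42 in wild-type liver, a difference of 0.23 (adjusted p = 0.0353), where the probe set of Ndufs5 alone gave 0.01. Both probe sets of Ndufb4, Ndufb4b and Ndufb4c were higher, by 0.36 and 0.40, for a subunit that no single-gene probe set covered. Differences were 0.36 for Ndufa11 with Ndufa11b, 0.31 for Ndufs6 with Ndufs6b and 0.47 for Ndufab1 with Ndufab1-ps.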

How the results depend on the processing

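Of the 86 genes, 59 were called higher, and 40 to 56 were with 1 array left out, 42 with cyclic loess, 45 with a replicate block (pairing arrays by number, which the deviations did not bear out), 51 with median centring, 57 with probe sets of a gene averaged and 80 with scaling to the bacterial controls. All 14 bacterial control probe sets were lower in every transgenic array, with a median of -0.37. Whether this comes from RNA input or from hybridisation was not tested, so scaling to these controls is not a measure of RNA per cell. Scaling to them moved the median of all genes to 0.33 and that of the 86 to 0.64, and made 91.5% of all calls higher against 49.4%. The genes called lower numbered 1, against 2 with quantile normalization, median centring or array weights, 4 with every probe set tested, 0 with bacterial scaling and 1 to 2 with an array left out, and for complex IV the counts were the same except with every probe set. Complex I had 19 called higher, against 32 with bacterial scaling and 12 to 18 with an array left out, and 0 lower, against 2 with every probe set. For complex II the 1 called higher became 0 with cyclic loess, 4 with bacterial scaling, 2 with array weights or with trend and robust options, and 0 to 2 with an array left out. Complex III had 1 lower with every probe set. Complex V had 15 called higher, against 9 with cyclic loess and 8 to 13 with an array left out. Of the assembly factors 1 was called higher, with a median of -0.017, without probe sets of suffix x, s or a, when 3 were measured. Among the 33 genes given by array under the naming rule, differences that changed sign were Cox6a2 (0.053) and Cox4i2 (0.19) with bacterial scaling and Cox8b without transgenic replicate 1, with a range of -0.27 to 0.47 over arrays left out. The cause of these shifts was not tested, beyond fewer arrays or genes where an alternative leaves them out. Over all alternatives 521 values of these 33 genes kept their direction and side of the threshold, 13 lost it, 13 gained it and 3 changed sign. Signal over background was not given, so dim genes such as Cox8b and Cox4i2 have no detection call.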
